A study of Homo sapiens with 4 samples.

Results

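The actin-based contractile machinery was followed through 10 genes: the tropomyosin genes TPM1, TPM2 and TPM4, the myosin light chain gene MYL9 and its kinase gene MYLK, the smooth muscle actin gene ACTA2, the actin-binding genes TAGLN, CNN1 and CNN2, and the caldesmon gene CALD1. They were taken by gene symbol, each matched to 1 Ensembl ID, and make up 10 of the 43714 gene rows that were counted. The cells were a pair of lines derived from low-passage MDA-MB-231, a human triple-negative breast cancer line that is described as mesenchymal. Both lines carry the stably transfected 7TGP reporter, in which 7 TCF sites drive EGFP when beta-catenin enters the nucleus, and both were selected with puromycin at 3 ug/mL. After 8 rounds of expansion and sorting, the reporter-positive line (MDA-MB-2317TGP-POS, 2 libraries) held more than 80% EGFP-positive cells, and the reporter-negative line (MDA-MB-2317TGP-NEG, 2 libraries) held more than 95% EGFP-negative cells. Both grew in DMEM with 10% FBS. With a single sorted line per reporter state, anything else in which the lines differ cannot be told apart from reporter activity.

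In smooth muscle and in moving non-muscle cells, force comes from myosin II pulling on actin filaments. Myosin light chain kinase, the product of MYLK, phosphorylates the regulatory light chain and so switches the motor on, and MYL9 encodes one such light chain. Tropomyosins lie along the actin filament and set which myosins and other proteins can bind it, while caldesmon, calponins and transgelin bind actin beside them and modulate the motor or stabilise the filament. In many cell types these genes are known targets of serum response factor (SRF) with its coactivators of the myocardin family, and ACTA2, TAGLN and CNN1 serve as markers of smooth muscle cells and of contractile fibroblasts.

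Read counts summed to 62539034 and 55894092 in the reporter-positive libraries and to 63034563 and 58429705 in the reporter-negative libraries. Levels are given as CPM, counts divided by library sizes scaled by the trimmed mean of M values (TMM). Across genes, the Spearman coefficient was 0.992 within both lines and 0.980 to 0.983 between them; genes are not independent replicates. Whether a line's libraries stem from separate cultures is not stated, and the p-values reflect just how far these libraries lie apart, a spread that may be technical. The gene counts also take in introns and either strand. Of genes with at least 100 counts in every library that lie inside another gene's span, 1303 sit on the host's strand and 2079 opposite to it, and the host's count was at least as high in 1303 and 2079 cases. Reads from a gene and from one that overlaps it therefore cannot be told apart, and the main overlapping genes are given beside the results they touch. The mesenchymal gene VIM was the highest of the identity markers in both lines, with 1257 and 1343 CPM in the reporter-positive and 2714 and 2625 CPM in the reporter-negative libraries (VIM-AS1 overlaps it with 36.9% of its counts), and the E-cadherin gene CDH1 stayed under 1 CPM in each library (0.394 to 0.859). PGR did so too (0.331 to 0.619). ERBB2, listed as low, was at 63.8 and 64.3 CPM in the reporter-positive and 81.0 and 81.1 CPM in the reporter-negative libraries. EPCAM (4.49 to 4.74 CPM), listed as low too, was not absent. ESR1, also listed as low, was at 4.88 to 6.18 CPM. SYNE1 overlaps ESR1 and had 993% of its counts, so the ESR1 counts may be SYNE1 reads. CD44 was at 263 and 298 CPM in the reporter-positive and 242 and 236 CPM in the reporter-negative libraries. By the test described below, CD44 rose, VIM and ERBB2 fell, and the others did not pass.

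TPM2, MYL9, MYLK and ACTA2 were lower in the reporter-positive line. The fall was about the same for MYL9 and MYLK, to 60.0% and 61.4% of the reporter-negative level, largest of the 4 for TPM2, to 48.6%, and smallest for ACTA2, to 75.6%. The 6 other genes, among them TPM4, the most highly expressed of the 10 per kb of exon, did not pass the test. Thus 4 of 10 genes fell and none rose at a Benjamini-Hochberg adjusted p under 0.05 in edgeR's quasi-likelihood test, where 10.9% of the 30952 genes tested fell and 11.6% rose. Among protein-coding genes, 14.8% of 16957 fell and 14.7% rose. With scaling to total counts, the numbers over all genes were 2270 higher and 4032 lower, against 3576 higher and 3366 lower with TMM. At an unadjusted p under 0.05, edgeR gave 1 higher and 4 lower genes of the 10. At an adjusted p under 0.05, DESeq2 and limma-voom each called 0 higher and 3 lower. The median log2 fold change was -0.064 over the 10 genes and -0.0046 over all genes tested.

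**Figure D1:**
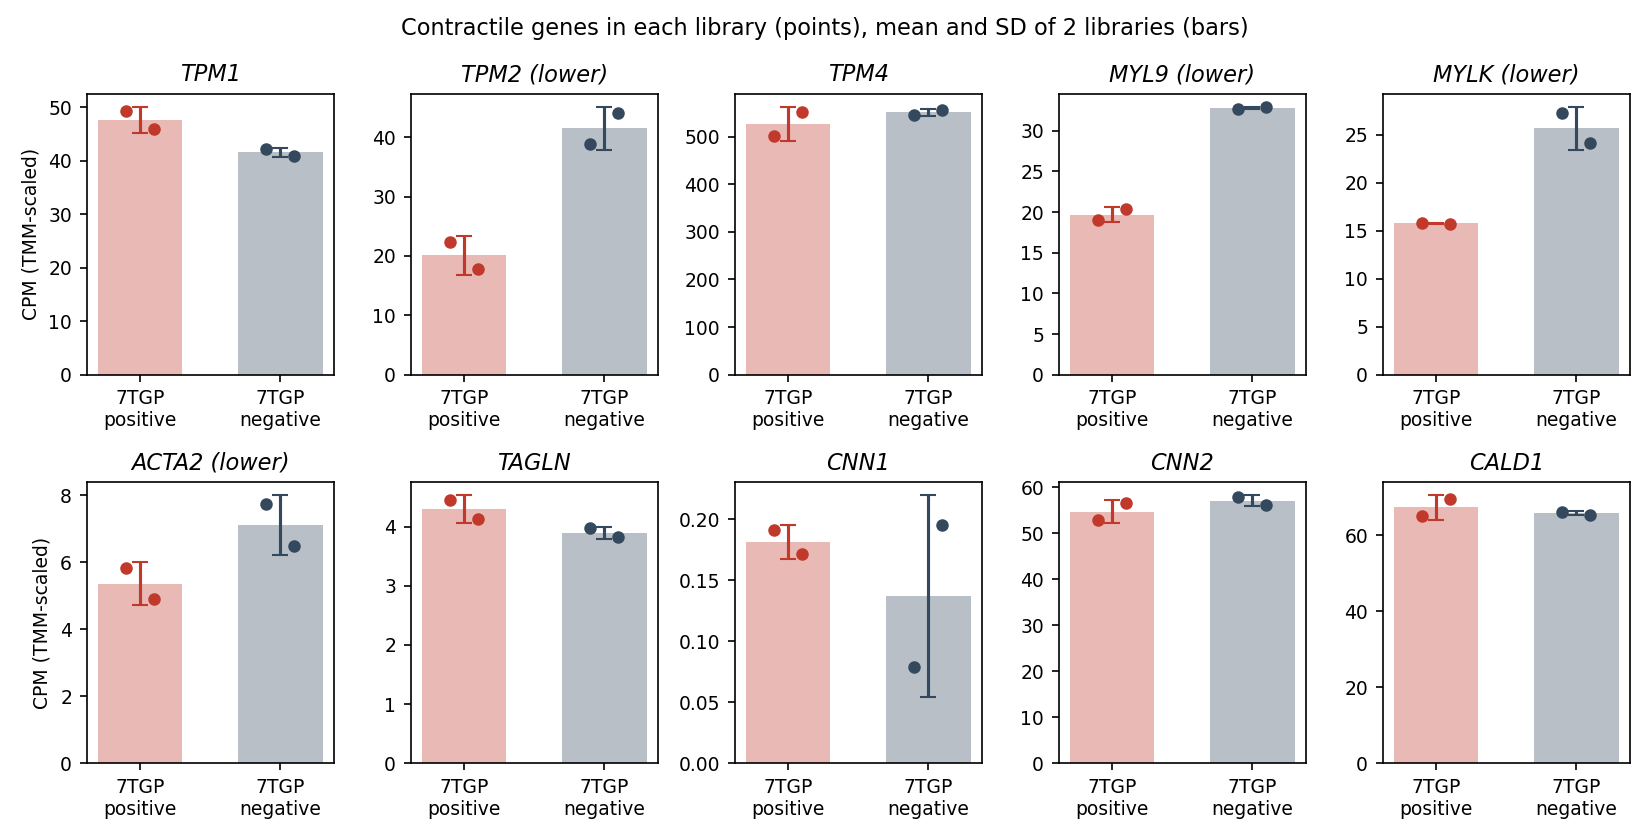
Level of each of the 10 contractile genes in CPM (TMM-scaled, linear axes from 0) in the reporter-positive (7TGP positive, left) and reporter-negative line (right); points are libraries, bars means and whiskers SD of 2 libraries, and "lower" marks an adjusted p under 0.05. TPM2, MYL9 and MYLK have both reporter-positive libraries well under both reporter-negative ones, while CALD1, CNN2 and TPM4 overlap.

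TPM2 (ENSG00000198467, chromosome 9, 35681992 to 35690121 on GRCh38, reverse strand) encodes beta-tropomyosin, one of the long tropomyosins of muscle and of stress fibres. It had 1406 and 933 counts, or 22.4 and 17.8 CPM, in the reporter-positive libraries, and 2471 and 2705 counts, or 38.9 and 44.0 CPM, in the reporter-negative libraries. Both reporter-positive libraries lay far under both reporter-negative ones. On the log2 scale TPM2 changed by -1.04 (standard error 0.10, 95% interval -1.26 to -0.82, edgeR, Benjamini-Hochberg adjusted p = 2.84e-06). No other listed gene overlaps TPM2, although how reads shared by the similar tropomyosin genes were assigned is not known. In bulk RNA, fewer cells expressing the gene and less of its RNA per cell cannot be told apart, here and for the genes below.

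TPM1 (ENSG00000140416, chromosome 15, 63042632 to 63071915, forward strand), the alpha-tropomyosin gene, did not follow it. TPM1 stood at 49.3 and 45.9 CPM in the reporter-positive libraries, against 42.2 and 40.9 CPM in the reporter-negative ones, a log2 fold change of 0.20 (95% interval 0.044 to 0.35) that missed the threshold (edgeR, Benjamini-Hochberg adjusted p = 0.0601). The reporter-positive libraries were the higher ones without overlap. TPM1 lay close to the threshold: it passed as higher without the reporter-positive library numbered 2 (edgeR, Benjamini-Hochberg adjusted p = 0.00421) and under other settings given further on. The antisense gene ENSG00000259627 lies inside TPM1 and had 38.8% as many counts. With this and TPM1-AS taken away, the log2 fold change was again 0.20, but TPM1 lay further from the threshold. Its standard error was then 0.093, against 0.073 in the main fit (edgeR, Benjamini-Hochberg adjusted p = 0.145).

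TPM4 (ENSG00000167460, chromosome 19, 16067021 to 16103005, forward strand) encodes a short tropomyosin of non-muscle cells. It had 501 and 552 CPM in the reporter-positive libraries and 546 and 557 CPM in the reporter-negative libraries, so that the lines overlapped. Its 95% interval of the log2 fold change, -0.24 to 0.11, leaves room for a level between 84.4% and 108% of that in the reporter-negative line (edgeR, Benjamini-Hochberg adjusted p = 0.661). ENSG00000279198, which lies inside TPM4 on the opposite strand, had 11.2% as many counts. Per kb of exon TPM4 averaged 62.4 CPM over the 4 libraries, above 98.0% of the coding genes tested, against 9.48 for TPM2 and 3.46 for TPM1. The remaining tropomyosin gene, TPM3, encodes short non-muscle forms as well as a slow-muscle one. TPM3 was at 174 and 199 CPM in the reporter-positive and 187 and 191 CPM in the reporter-negative libraries (edgeR, Benjamini-Hochberg adjusted p = 0.911).

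Within each library the tropomyosin genes were also set against each other. TPM2 gave 7.71% and 5.67% of all tropomyosin counts per kb of exon in the reporter-positive libraries and 11.9% and 13.0% in the reporter-negative libraries. TPM4 made up most of the total, with 64.8% and 66.1% in the reporter-positive and 62.8% and 62.0% in the reporter-negative libraries. TPM3 gave 23.2% and 24.6% in the reporter-positive and 22.1% and 21.9% in the reporter-negative libraries. TPM1 gave 4.29% and 3.68% in the reporter-positive and 3.25% and 3.05% in the reporter-negative libraries. The lines did not overlap for any of the 4 genes. With 2 libraries per line no permutation test can reach 0.05, so these shares are a description, and since shares sum to a whole, a lower share of 1 gene raises the others. Exons were taken as the union over all annotated transcripts, which is longer than any single mRNA, and the shares move with the length used, although the TPM2 share stayed lower in the reporter-positive line, the difference (reporter-positive minus reporter-negative) being -5.78 percentage points per kb of exon, -2.44 in raw counts and -8.56 per kb of gene span.

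**Figure D2:**
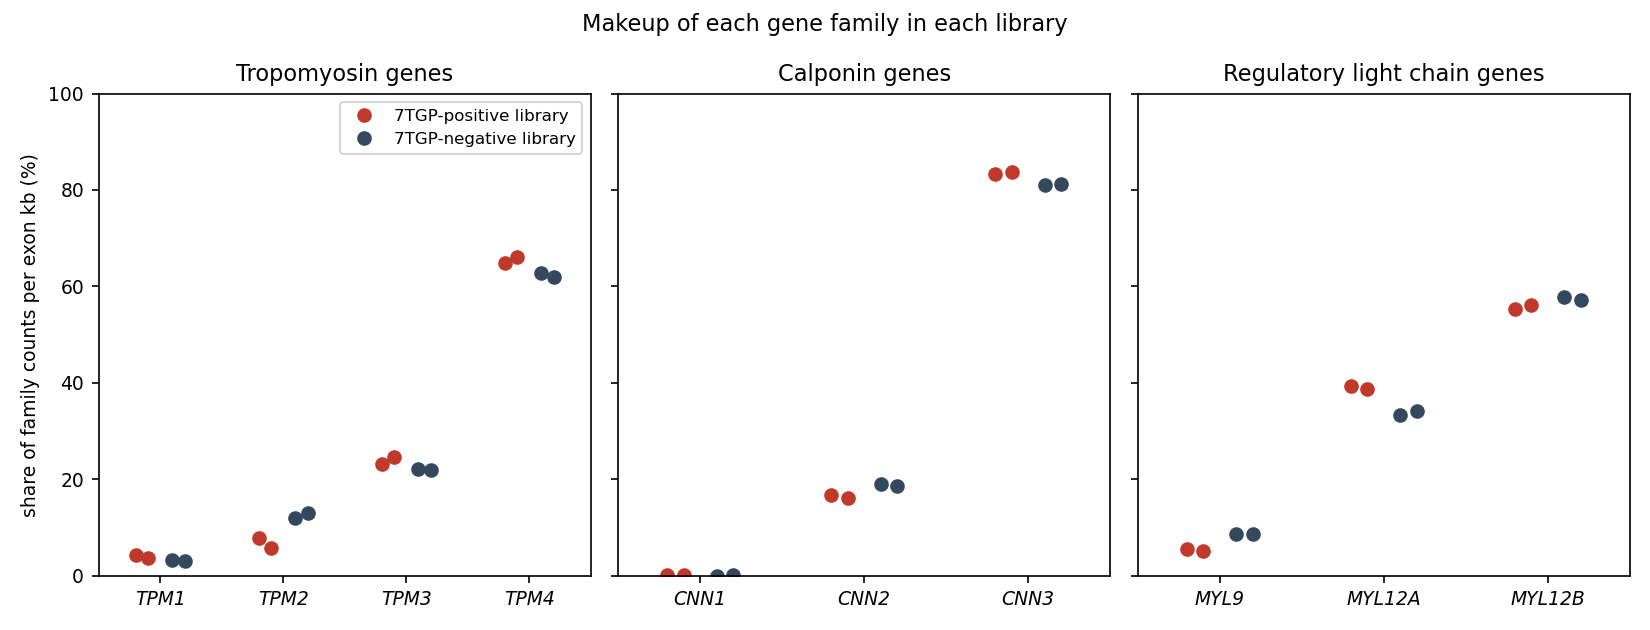
Share (percent, linear axis 0 to 100) of each gene in the summed counts per kb of exon of its family in each library, reporter-positive left of reporter-negative, for tropomyosin, calponin and regulatory light chain genes. TPM2 and MYL9 hold smaller shares in the reporter-positive libraries (5.67% to 7.71% and 5.19% to 5.46%) than in the reporter-negative ones (11.9% to 13.0% and 8.64% to 8.71%).

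MYL9 (ENSG00000101335, chromosome 20, 36541484 to 36551447, forward strand) encodes the regulatory light chain typical of smooth muscle, which many non-muscle cells express too. It had 1196 and 1066 counts, or 19.0 and 20.3 CPM, in the reporter-positive libraries and 2076 and 2020 counts, or 32.7 and 32.9 CPM, in the reporter-negative libraries. Libraries of a line lay close together and the lines were well apart. MYL9 fell by 0.74 on the log2 scale (standard error 0.078; edgeR, Benjamini-Hochberg adjusted p = 4.88e-07). Its whole span lies within DLGAP4-AS1, a noncoding gene on the opposite strand whose counts hold those of MYL9. Taking MYL9 from it left 19.2 and 16.3 CPM for the rest of DLGAP4-AS1 in the reporter-positive libraries and 28.3 and 25.5 CPM in the reporter-negative libraries, so the rest of the host was lower as well.

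The closest relatives of MYL9 did not pass with all libraries in the fit. MYL12A and MYL12B, neighbouring genes for non-muscle regulatory light chains whose similar sequences may share reads, had log2 fold changes of 0.18 and -0.075 (edgeR, Benjamini-Hochberg adjusted p = 0.108 and 0.570). MYL12A was at 157 and 175 CPM in the reporter-positive and 144 and 150 CPM in the reporter-negative libraries. MYL12B was at 132 and 151 CPM in the reporter-positive and 149 and 149 CPM in the reporter-negative libraries. Both overlap MYL12-AS1, which had 56.6% of the counts of MYL12A and 60.9% of those of MYL12B. The values turned on single reporter-positive libraries: MYL12A passed as higher without number 1 (log2 fold change 0.25, adjusted p = 4.69e-05) and was at 0.092 without number 2, while MYL12B passed as lower without number 2 (log2 fold change -0.18, adjusted p = 0.0108), all by edgeR with Benjamini-Hochberg adjustment. Within this trio MYL9 gave 5.46% and 5.19% of counts per kb of exon in the reporter-positive and 8.71% and 8.64% in the reporter-negative libraries, so most of the light chain signal came from the pair of MYL12 genes in both lines.

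MYLK (ENSG00000065534, chromosome 3, 123610049 to 123884331, reverse strand) had 992 and 825 counts, or 15.8 and 15.7 CPM, in the reporter-positive libraries and 1731 and 1481 counts, or 27.3 and 24.1 CPM, in the reporter-negative libraries. The kinase gene was thus lower in both reporter-positive libraries by a margin wider than the gap between libraries of a line. MYLK changed by -0.70 on the log2 scale (standard error 0.085; edgeR, Benjamini-Hochberg adjusted p = 2.78e-06). MYLK-AS1, which overlaps 12.6% of the MYLK span on the opposite strand and had 48.6% as many counts, fell too, by 0.55 on the log2 scale (adjusted p = 4.52e-04 in the same fit). MYLK also produces telokin, a small myosin-binding protein, from a start inside the gene, and gene counts do not separate it from the kinase.

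ACTA2 (ENSG00000107796, chromosome 10, 88935074 to 88991339, reverse strand), the gene of smooth muscle alpha-actin, had 365 and 257 counts, or 5.81 and 4.90 CPM, in the reporter-positive libraries and 491 and 398 counts, or 7.73 and 6.48 CPM, in the reporter-negative libraries. The lines did not overlap, but the gap between them, 0.668 CPM, was smaller than that between the libraries of either line. ACTA2 fell by 0.40 on the log2 scale (standard error 0.14; edgeR, Benjamini-Hochberg adjusted p = 0.0371). The call was lost without the reporter-negative library numbered 1 (log2 fold change -0.27, adjusted p = 0.447), when the reporter-positive library numbered 2 was left out (log2 fold change -0.30, adjusted p = 0.115), with DESeq2 (adjusted p = 0.103) and with limma-voom (adjusted p = 0.0514), all by Benjamini-Hochberg, and over the alternatives its adjusted p ran from 0.00180 to 0.447. On the opposite strand, 71.2% of ACTA2 is covered by STAMBPL1, which had about 10 times the counts of ACTA2 (996%) and rose by 0.21 on the log2 scale (adjusted p = 0.0391 by edgeR), so part of the ACTA2 counts may be its reads. ACTA2-AS1 and FAS overlap ACTA2 too, with 44.7% and 50.6% of its counts, and neither passed.

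TAGLN (ENSG00000149591, chromosome 11, 117199321 to 117204782, forward strand) encodes transgelin, also called SM22, an early smooth muscle marker. It was low and without overlap between the lines, at 4.46 and 4.12 CPM in the reporter-positive libraries and 3.97 and 3.83 CPM in the reporter-negative libraries (log2 fold change 0.14, 95% interval -0.17 to 0.45; edgeR, Benjamini-Hochberg adjusted p = 0.579). PCSK7, a convertase gene with 853% of the counts of TAGLN, overlaps the last 8.17% of its span and rose by 0.42 on the log2 scale (adjusted p = 8.35e-04 in the same fit). The smooth muscle calponin gene CNN1 (ENSG00000130176, chromosome 19, 11538717 to 11550323, forward strand) was close to absent, with 12 and 9 counts in the reporter-positive libraries and 5 and 12 counts in the reporter-negative libraries. At this depth no difference was detectable for CNN1, the interval of its log2 fold change running from -0.84 to 1.66 (edgeR, Benjamini-Hochberg adjusted p = 0.710).

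CNN2 and CALD1 are the broadly expressed members. CNN2 (ENSG00000064666, chromosome 19, 1026581 to 1039068, forward strand), a calponin of non-muscle cells, was at 52.8 and 56.4 CPM in the reporter-positive libraries and 57.8 and 56.2 CPM in the reporter-negative libraries (95% interval of the log2 fold change -0.21 to 0.087; edgeR, Benjamini-Hochberg adjusted p = 0.622). ENSG00000279753 lies inside CNN2 with 14.5% as many counts. CALD1 (ENSG00000122786, chromosome 7, 134744252 to 134970728, forward strand), whose product caldesmon restrains the myosin ATPase, was at 65.1 and 69.6 CPM in the reporter-positive libraries and 66.3 and 65.5 CPM in the reporter-negative libraries (95% interval -0.12 to 0.18; edgeR, Benjamini-Hochberg adjusted p = 0.823). For both, the lines overlapped and the intervals hold no change beyond 86.4% to 106% of the reporter-negative level for CNN2 and 92.2% to 113% for CALD1. The acidic calponin gene CNN3, the chief calponin here with 83.3% and 83.8% of calponin counts per kb of exon in the reporter-positive and 80.9% and 81.2% in the reporter-negative libraries, did not pass either (log2 fold change 0.18; edgeR, Benjamini-Hochberg adjusted p = 0.0959). It passed as higher when the reporter-positive library numbered 1 was left out (log2 fold change 0.26, adjusted p = 1.39e-05) and was at 0.10 when number 2 was left out.

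**Figure D3:**
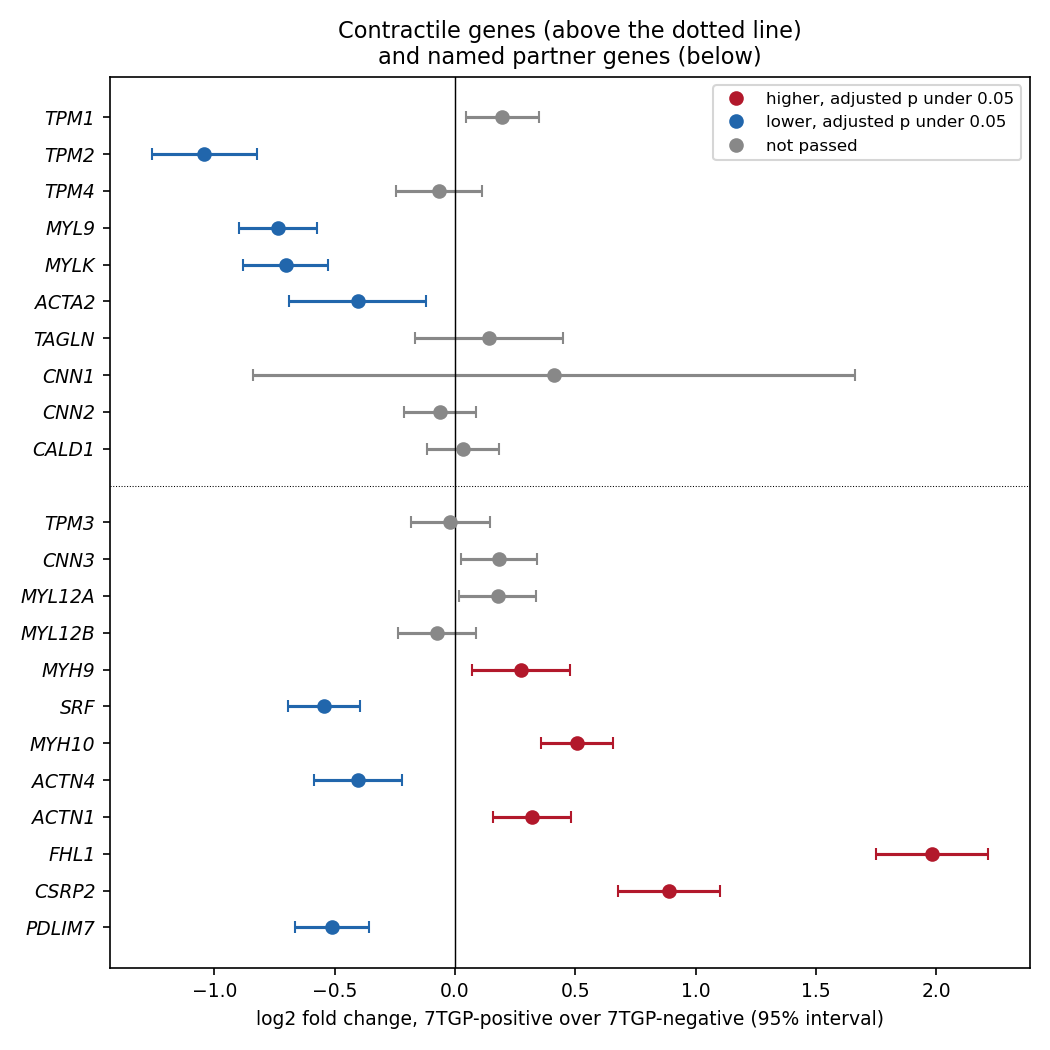
Log2 fold change (reporter-positive over reporter-negative, horizontal axis) with its 95% interval for the 10 contractile genes above the dotted line and named partner genes below it, coloured by the edgeR call. TPM2 sits lowest at -1.04 and FHL1 highest at 1.98, and the interval of CNN1 (-0.84 to 1.66) is the widest.

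The genes that lie beside a member on its chromosome did not all stand still. Of the 35 tested coding genes within 1 Mb of TPM2, 20 fell and none rose, with a median log2 fold change of -0.30. TPM2 was still 0.74 under that median, and 1 of the 35 had a lower value. Around MYL9, 19 of 30 fell and none rose, with a median of -0.27, and MYL9 lay 0.46 under it. Around MYLK, 1 of 13 fell, 1 rose and the median was 0.029. Around ACTA2, 9 of 19 rose, none fell and the median was 0.24, whereas within 5 Mb 12 of 58 rose, 8 fell and the median was 0.095. TPM1 lay in a lower stretch too, where 5 of 11 coding genes fell and the median was -0.43, while 8 of 17 rose around TAGLN, with a median of 0.37. Around TPM4, 5 of 34 fell and 1 rose, and around CNN1, 9 of 64 fell and 2 rose. Around CNN2, 13 of 64 fell and 2 rose, and around CALD1, 0 of 18 fell and 2 rose. Over all coding genes tested, 14.8% fell and 14.7% rose. Some neighbours overlap each other and can share reads, such as MSMP, which lies inside RGP1 near TPM2. The numbers that fell or rose are therefore not counts of independent genes. The part of these stretches in the levels of the members was not tested.

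**Figure D4:**
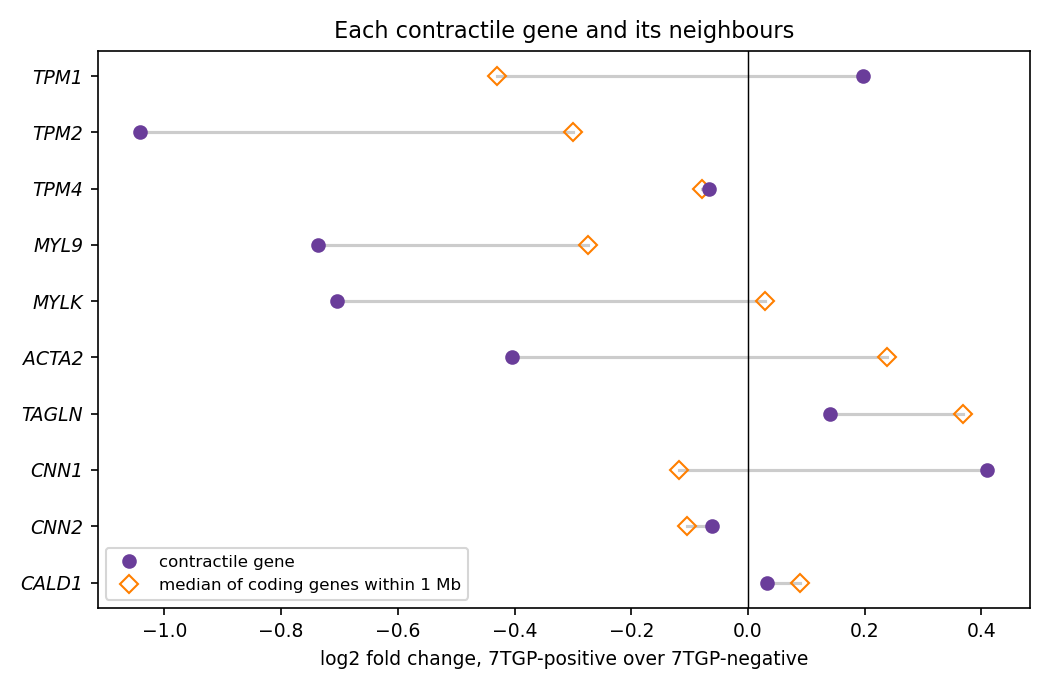
Log2 fold change (reporter-positive over reporter-negative, horizontal axis) of each contractile gene (filled circles) and the median over tested protein-coding genes within 1 Mb on either side (open diamonds), joined by a line. TPM2 and MYL9 lie under medians of -0.30 and -0.27, MYLK lies under a median near 0 (0.029), and TPM1 lies above one of -0.43.

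Promoter sequence from RefSeq (GRCh38.p14) was at hand for 8 of the 10 genes, in 15 windows of 300 bases that run from 250 bases before to 50 after a listed start, with none for MYL9 and TAGLN. The CArG box, the site that SRF binds, is the motif that ties such genes together in muscle, and it was searched by its strict consensus, which reads alike on both strands. It was found in 3 of the 15 windows, against 1.29% of the 35116 windows of all genes. The 250 bases before the start are shown for these 3 genes and for TPM2, which fell most and whose pair of windows holds no match, with each CArG box in capitals.
MYLK, chr3:123620549-123620798, reverse strand: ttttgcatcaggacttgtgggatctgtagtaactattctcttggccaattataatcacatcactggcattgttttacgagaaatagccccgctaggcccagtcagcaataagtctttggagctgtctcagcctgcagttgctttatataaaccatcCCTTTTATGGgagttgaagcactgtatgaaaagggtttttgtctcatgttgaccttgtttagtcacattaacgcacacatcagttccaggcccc
TPM4, chr19:16067288-16067537, forward strand: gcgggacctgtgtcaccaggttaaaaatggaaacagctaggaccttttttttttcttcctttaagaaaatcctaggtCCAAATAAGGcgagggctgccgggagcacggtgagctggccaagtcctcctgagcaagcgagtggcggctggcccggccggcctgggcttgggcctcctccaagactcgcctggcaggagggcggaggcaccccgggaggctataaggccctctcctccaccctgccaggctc
CNN2, chr19:1026358-1026607, forward strand: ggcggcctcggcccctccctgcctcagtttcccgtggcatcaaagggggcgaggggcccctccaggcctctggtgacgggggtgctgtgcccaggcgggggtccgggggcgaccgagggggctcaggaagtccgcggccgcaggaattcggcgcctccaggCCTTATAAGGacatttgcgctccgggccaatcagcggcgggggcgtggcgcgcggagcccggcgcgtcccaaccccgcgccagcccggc
TPM2, chr9:35690057-35690306, reverse strand: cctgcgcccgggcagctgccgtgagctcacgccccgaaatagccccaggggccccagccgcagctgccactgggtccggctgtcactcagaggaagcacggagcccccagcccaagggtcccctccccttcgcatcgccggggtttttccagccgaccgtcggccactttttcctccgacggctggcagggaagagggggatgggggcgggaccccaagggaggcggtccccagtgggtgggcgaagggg
The box begins 94 bases before the start in MYLK, 173 in TPM4 and 89 in CNN2. The MYLK window belongs to a start inside the gene, near its 3′ end, where the short telokin transcript begins, and not to the start of the long kinase transcript. TPM4 has 3 windows: the box lies in that of the start at 16067538, and those of the starts at 16076495 and 16077016 hold none. Of the 3 genes with a box, MYLK fell and TPM4 and CNN2 did not pass. The TCF/LEF core CTTTGAT, searched on both strands, was found in the CNN2 window, against 2.62% of all windows, and CTTTGAA, against 4.43%, in none of the 15. CATTCC, the core bound by TEAD factors, was found on either strand in 4 windows, of MYLK, ACTA2 and CALD1 (2 windows), against 14.0% of all. These matches are letters in a window and not sites shown to be bound. The strict CArG search left out near matches. These include ccctatatgg in the ACTA2 window of the start at 88952773 and ccaaataagt in the TPM4 window of the start at 16076495.

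Of 30 partner genes of the contractile machinery, 6 rose (20.0%), 2 fell (6.67%) and 22 did not pass, with a median log2 fold change of -0.029. Over all coding genes tested, 14.7% rose and 14.8% fell. With scaling to total counts they gave 4 higher and 7 lower. Without either reporter-negative library, 2 were higher and 0 lower by edgeR, where calls over all genes were fewer as well (2333 and 2432 higher, 2025 and 2300 lower). Without the reporter-positive library numbered 2, 6 were higher and 9 lower. The non-muscle myosin heavy chain gene MYH10 rose, at 52.2 and 51.5 CPM in the reporter-positive and 36.7 and 36.3 CPM in the reporter-negative libraries (log2 fold change 0.51, standard error 0.071; edgeR, Benjamini-Hochberg adjusted p = 1.90e-05). NDEL1, which overlaps MYH10 and had 126% of its counts, was 0.17 higher on the log2 scale and did not pass (adjusted p = 0.0911 in the same fit). MYH9, the main non-muscle myosin heavy chain gene, reached 1558 and 1681 CPM in the reporter-positive and 1343 and 1335 CPM in the reporter-negative libraries and passed narrowly (edgeR, Benjamini-Hochberg adjusted p = 0.0467). That call was lost under 5 of 11 alternatives, with log2 fold changes of 0.28 under RLE scaling (adjusted p = 0.0629), 0.28 and 0.27 without reporter-negative library 1 and 2 (adjusted p = 0.451 and 0.469), 0.27 with the replicate block (adjusted p = 0.0823) and 0.19 under total count scaling (adjusted p = 0.0630), against 0.27 in the fit as reported.

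Both alpha-actinin genes of non-muscle cells, which encode actin crosslinkers, passed in opposite directions. ACTN1 was at 409 and 419 CPM in the reporter-positive and 333 and 331 CPM in the reporter-negative libraries (edgeR, Benjamini-Hochberg adjusted p = 0.00451). ACTN4 was at 601 and 645 CPM in the reporter-positive and 841 and 808 CPM in the reporter-negative libraries (edgeR, Benjamini-Hochberg adjusted p = 0.00168). Neither passed when a reporter-negative library was left out, where the log2 fold changes stayed close (0.33 and 0.31 for ACTN1 against 0.32, and -0.37 and -0.44 for ACTN4 against -0.40, without number 1 and number 2) and the standard errors were larger (0.16 for ACTN1 and 0.17 for ACTN4, against 0.078 and 0.087). The cytoplasmic actin genes, named after their values were seen, did not pass: ACTB had a log2 fold change of -0.14 and ACTG1 of 0.040 (edgeR, Benjamini-Hochberg adjusted p = 0.366 and 0.816).

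SRF was among the clearest changes of its list. It fell to 44.1 and 46.5 CPM in the reporter-positive libraries, against 64.8 and 67.4 CPM in the reporter-negative libraries (log2 fold change -0.54, standard error 0.072; edgeR, Benjamini-Hochberg adjusted p = 7.96e-06). The genes beside SRF on chromosome 6 were not examined, so whether they were lower too was not tested. The coactivator genes of SRF, named here after their values were seen, passed in opposite directions as counted: MRTFB rose by 0.48 and MRTFA fell by 0.29 on the log2 scale (edgeR, Benjamini-Hochberg adjusted p = 7.02e-05 and 0.0166). TVP23CP2 lies inside MRTFB on the same strand with 44.7% of its counts and itself rose by 1.00 on the log2 scale (adjusted p = 2.04e-07 in the same fit). With TVP23CP2 taken away, MRTFB was at 15.05 and 13.6 CPM in the reporter-positive and 13.7 and 13.4 CPM in the reporter-negative libraries, so that the lines overlapped. MRTFA touches SGSM3, which had 95.7% of its counts, but they overlap by just 9 bases, or 0.0040% of the MRTFA span. The muscle coactivator gene MYOCD was near its detection limit, at 0.414 and 0.286 CPM in the reporter-positive and 0.346 and 0.472 CPM in the reporter-negative libraries.

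Of the 22 SRF-linked and focal adhesion genes, SRF included, 5 rose (22.7%), 7 fell (31.8%) and 10 did not pass, against 14.7% higher and 14.8% lower among coding genes. Their median log2 fold change was -0.050, and with scaling to total counts 4 rose and 9 fell. Without the reporter-negative library numbered 1, 4 were lower. FHL1, a LIM domain gene abundant in muscle, rose most, at 16.6 and 18.6 CPM in the reporter-positive and 4.13 and 4.79 CPM in the reporter-negative libraries (log2 fold change 1.98, standard error 0.11; edgeR, Benjamini-Hochberg adjusted p = 3.72e-11). CSRP2, a smooth muscle LIM gene, rose as well, at 14.4 and 14.6 CPM in the reporter-positive and 8.32 and 7.31 CPM in the reporter-negative libraries. PDLIM7, another LIM domain gene, fell to 85.0 and 77.8 CPM in the reporter-positive libraries, against 116 and 116 CPM in the reporter-negative libraries (edgeR, Benjamini-Hochberg adjusted p = 2.40e-05). PDLIM7-AS1, which overlaps PDLIM7 with 18.8% of its counts, fell too.

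Calls among the cell markers stand beside 14.8% lower and 14.7% higher over all coding genes tested. Markers of differentiated smooth muscle were mostly low. DES and ACTG2 were under 0.2 CPM in each library and too low to be tested, with DES at 0 counts in the reporter-positive library numbered 2. Of the other 6, MYH11 and SYNM fell and 4 did not pass, and the list summed to 155 and 148 CPM in the reporter-positive and 186 and 174 CPM in the reporter-negative libraries. Most of the sum came from SMTN, a gene for a smooth muscle cytoskeletal protein that other cells also express, at 88.7 and 80.9 CPM in the reporter-positive and 101 and 93.2 CPM in the reporter-negative libraries. SYNM gave much of the rest, at 48.6 and 49.1 CPM in the reporter-positive and 65.7 and 59.6 CPM in the reporter-negative libraries. MYH11, the smooth muscle myosin heavy chain gene, was at 12.9 and 13.9 CPM in the reporter-positive and 16.1 and 17.0 CPM in the reporter-negative libraries, but overlaps NDE1, which had 253% of its counts, and SYNM overlaps SYNM-AS1, with 111% of its counts. The 6 pericyte and fibroblast markers summed to 20.8 and 21.3 CPM in the reporter-positive and 21.4 and 19.8 CPM in the reporter-negative libraries. The largest part came from RGS5, which NUF2 overlaps with 457% of its counts. PDGFRA is overlapped by ENSG00000282278, with 13911% of its counts. Part of this sum may therefore be reads of the overlapping genes. In this list LUM rose and PDGFRB fell. The part of these marker sums in the lower members was not tested. Of 8 listed striated muscle markers, 4 were too low to be tested, TTN fell (TTN-AS1 overlaps it, with 100.1% of its counts) and 3 did not pass, and they summed to 72.5 and 69.9 CPM in the reporter-positive and 76.3 and 76.7 CPM in the reporter-negative libraries, mostly from TNNT1. The 3 endothelial markers, none of which passed, summed to 77.6 and 60.3 CPM in the reporter-positive and 90.0 and 74.9 CPM in the reporter-negative libraries, mostly from PECAM1. The 3 leukocyte markers, of which CD68 fell (ENSG00000264772 overlaps it, with 1168% of its counts), summed to 18.8 and 20.7 CPM in the reporter-positive and 25.0 and 28.8 CPM in the reporter-negative libraries.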

How the data were processed

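RNA from a reporter-positive and a reporter-negative MDA-MB-231 line (2 libraries each, 1 batch label, 1 ug of RNA per library) was sequenced. The authors deposited raw read counts per Ensembl gene ID, which were used as they stand. Per the submitters' processing notes, HISAT2, Bowtie2, DESeq2 and the build hg19 are named with no role. In the sources used here, the counter, annotation and strand setting behind the counts are not given. All 43714 IDs are in GENCODE release 29 (GRCh38), from which symbols, positions, exon lengths and overlaps were taken, and 43289 have a current symbol.

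All genes were fitted together in R 4.3.3 by the robust quasi-likelihood F test of edgeR 4.0.16, with a single term for the line, after filterByExpr (minimum count 10, total 15) and TMM scaling. P-values were adjusted by Benjamini-Hochberg over 30952 genes at 0.05. Fold changes are reporter-positive over reporter-negative. The script was tested on simulated counts. Total counts were 55894092 to 63034563, and counting error weighs most on genes with few counts, such as CNN1, TAGLN and ACTA2. Alternatives used limma 3.58.1, DESeq2 1.42.0, other scalings and filters, the library number as a block, each library left out, and genes without overlaps. Members, gene lists and tests were chosen with earlier results of these data known, and the neighbour windows after the data were seen. Named partner genes were the 4 with the smallest adjusted p per list plus the nearest relatives of the members and SRF. A result for 1 of these genes is not reported here. No 2 libraries were duplicates: per degree of freedom, the chi-square between libraries was 17.1 in the reporter-positive and 32.8 in the reporter-negative line.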

Additional observations from a re-analysis of the deposited data

How the results depend on the processing

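TPM2, MYL9 and MYLK kept their direction and passed under each alternative run for them (12, 11 and 12), with log2 fold changes of -1.22 to -0.90, -0.82 to -0.69 and -0.79 to -0.61. ACTA2 passed under 7 of 11. TPM1 passed as higher with a filter at 1 CPM, with the replicate block (adjusted p = 0.0452 and 0.0368 by edgeR, Benjamini-Hochberg) and without the reporter-positive library numbered 2, so these gave 1 higher member, and leaving out single libraries gave 0 to 1 higher and 3 to 4 lower. The library numbers showed no pairing of the libraries (correlation of same-numbered deviations 0.0079), although 2 libraries per line cannot settle this. With the numbers as a replicate block, the counts over all genes were 4175 higher and 4051 lower, against 3576 and 3366. Total count scaling gave 2270 higher and 4032 lower genes, and 4 higher and 7 lower partners. Leaving out each library gave 2333 to 4704 higher and 2025 to 4457 lower genes, 2 to 9 higher and 0 to 9 lower partners, and 4 to 7 higher and 4 to 8 lower SRF-linked genes. Among genes without an overlapping gene, which leaves fewer genes, 1111 were higher and 1093 lower, with 1 lower of 3 members, 1 higher and 0 lower of 6 partners, and 1 higher and 1 lower of 3 SRF-linked genes. Signs turned for values near 0. With total count scaling CALD1 had a log2 fold change of -0.054. Leaving out single libraries gave -0.024 to 0.083 for CALD1, -0.15 to 0.0049 for TPM4, -0.13 to 0.080 for TPM3, -0.18 to 0.020 for MYL12B and -0.10 to 1.18 for CNN1. The cause of these shifts was not tested.

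Tropomyosin shares in the reporter-positive line were 6.94% per kb of span and 6.12% in raw counts for TPM1, 10.6% and 2.59% for TPM2, 20.2% and 23.9% for TPM3, and 62.3% and 67.4% for TPM4. In the reporter-negative line they were 5.33% and 5.05% for TPM1, 19.1% and 5.04% for TPM2, 18.0% and 23.0% for TPM3, and 57.5% and 67.0% for TPM4. Within 5 Mb, 45.3% of coding genes around TPM2 and 60.9% around MYL9 fell, against 57.1% and 63.3% within 1 Mb. Around MYLK these shares were 4.88% and 7.69%.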
